A study of Homo sapiens with 12 samples.

Results

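Keratin genes encode the intermediate filaments of epithelial cells, and 55 of them were found among the 60099 genes of the table by their symbols, without keratin-associated proteins and pseudogenes. The set held 29 type I and 26 type II genes, of which 18 had a mean above 1 TPM (a transcript level scaled for length and depth) over the 12 samples. RNA was taken from Cal27 and HN30, established lines of head and neck squamous cell carcinoma (HNSCC), left untreated or exposed for 24 h to the type I interferon IFNα. Letters A and D were controls, B and E received 20 ng/ml and C and F received 200 ng/ml, with 2 samples for each letter. Each dose occurs once among letters A to C and once among D to F, and these are called line sets A-C and D-F, since the labels do not say which set is Cal27 and which is HN30. No label says whether the 2 samples of a letter came from separate cultures, so p-values measure only the spread between these samples, which may be technical.

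Keratins work in pairs. A type I chain, which is acidic, joins a type II chain, which is basic to neutral, and the pair assembles into filaments that are anchored at desmosomes and hemidesmosomes. KRT5 with KRT14 or KRT15 marks the basal layer of stratified epithelium, KRT8 with KRT18 or KRT19 marks simple epithelium, and KRT6A, KRT6B and KRT6C with KRT16 or KRT17 are known from wounded, activated and malignant squamous epithelium. KRT81, KRT83 and KRT86 are type II keratins of hair and nail.

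The type II genes lay in 1 cluster on chromosome 12 and the type I genes in 1 on chromosome 17, except KRT18, a type I gene beside KRT8 on chromosome 12. On GRCh38, the 27 keratins of chromosome 12 were spread over chr12:52168996-52952901 and the 28 of chromosome 17 over chr17:40654665-41624842. Some members are near copies of each other, so that reads could be divided between them only where they differ. The coding sequences of KRT6A and KRT6B were 97.5% identical, those of KRT6A and KRT6C 97.9% and those of KRT6B and KRT6C 98.5%. The windows of 60 coding bases in which the KRT6 genes differed most are shown because the response to IFNα turned on these 3 genes. They lie on the minus strand in 1 exon, are written 5′ to 3′ from GRCh38, and have in capitals the 9 positions at which the 3 genes were not all alike.
KRT6A, chr12:52491555-52491614: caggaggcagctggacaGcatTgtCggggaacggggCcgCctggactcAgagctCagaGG
KRT6B, chr12:52450439-52450498: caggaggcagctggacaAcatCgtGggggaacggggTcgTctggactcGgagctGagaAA
KRT6C, chr12:52472099-52472158: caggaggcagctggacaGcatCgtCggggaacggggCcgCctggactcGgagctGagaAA
KRT6B differed from KRT6A at 9 positions of this window and KRT6C differed from KRT6A at 5.

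The hair keratins are shown because they were much higher in one line set and are close copies of each other. KRT81 and KRT86 were 90.1% identical over their aligned coding sequences, with an identical run of 605 bases, and KRT81 and KRT83 were 89.3% identical. In the window below, KRT81 and KRT86 were identical, and the 11 positions in capitals were those at which KRT83 differed from both. KRT81 and KRT83 are on the minus strand and KRT86 on the plus strand.
KRT81, chr12:52289216-52289275: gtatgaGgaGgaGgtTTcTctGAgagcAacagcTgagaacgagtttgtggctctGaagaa
KRT86, chr12:52304111-52304170: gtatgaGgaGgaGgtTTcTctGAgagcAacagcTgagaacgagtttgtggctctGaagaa
KRT83, chr12:52317911-52317970: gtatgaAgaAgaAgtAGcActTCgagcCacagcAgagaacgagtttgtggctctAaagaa
Of the 31-base words of the KRT81 transcript, 53.2% also occurred in transcripts of other genes, and the share was 52.7% for KRT6A, 58.3% for KRT6B and 61.7% for KRT6C.

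KRT14, which was present in one line set and nearly absent from the other, is shown with KRT16 and KRT17, the type I genes next to it on the minus strand of chromosome 17. Its coding sequence was 85.2% identical to that of KRT16 and 78.4% identical to that of KRT17. The capitals mark the 22 positions at which the 3 genes were not all alike.
KRT14, chr17:41583583-41583642: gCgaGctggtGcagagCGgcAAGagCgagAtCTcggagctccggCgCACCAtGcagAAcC
KRT16, chr17:41610886-41610945: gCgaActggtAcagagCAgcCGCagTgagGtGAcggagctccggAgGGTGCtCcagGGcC
KRT17, chr17:41620998-41621057: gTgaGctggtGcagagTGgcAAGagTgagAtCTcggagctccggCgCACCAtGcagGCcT
KRT16 differed from KRT14 at 19 positions of this window and KRT17 at 6.

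Estimated counts per sample summed to between 10517448 and 16056734, with more counts in every control than in every sample at 200 ng/ml. Samples of 1 line set correlated between 0.940 and 0.976 over 13033 genes and samples of different sets between 0.678 and 0.717. All 10 interferon-stimulated genes listed as a check of the dose labels rose at the high dose in each line set. Of the epithelial markers, all 5 were above 1 TPM in both sets. The fibroblast markers summed to between 4.78 and 14.01 TPM in A-C and between 8.87 and 13.5 TPM in D-F, with COL3A1, DCN and LUM at 0 counts in D-F. Leukocyte markers summed to between 9.15 and 18.9 TPM in A-C and between 5.34 and 40.6 TPM in D-F, where CD68 made up most of the sum and CD3E had no count. Of the 4 leukocyte markers, 2 averaged above 1 TPM in A-C, CD14 and CD68, and 1 did in D-F, CD68. The melanocyte markers summed to at most 1.47 TPM. Endothelial markers summed to between 15.3 and 21.7 TPM in A-C and at most 0.733 TPM in D-F. In A-C nearly all of it came from CDH5, and PECAM1 had no count there.

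The keratins above the threshold came from 7 of the 9 role groups. All 3 basal keratins, all 5 stress and wound keratins and 4 of the 5 simple epithelial keratins had a mean above 1 TPM. Of the hair and nail keratins 3 of 17 did, and the 11 type I members of that group did not. KRT13, a suprabasal keratin of mucosa, KRT10, a suprabasal keratin of cornified epithelium, and KRT80, a type II keratin of many epithelia, completed the 18. None of the 9 keratins of the inner root sheath and companion layer and neither corneal keratin passed the threshold. The share above 1 TPM was 32.7% of the keratins and 32.4% of all genes.

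The threshold cut the set at a wide gap. The lowest keratin above it was KRT13 at a mean of 1.61 TPM and the highest below it was KRT23 at 0.279 TPM. Among the 37 keratins that were not above 1 TPM, 22 had no count in any sample and 15 had a count in at least 1. KRT78, a keratin of stratified mucosa, averaged 0.392 TPM in A-C and 0.0774 TPM in D-F, and had too few counts to enter the edgeR test. KRT4, the usual type II partner of KRT13, had 6 counts in all. KRT1 and KRT2, partners of KRT10 in epidermis, had 2 counts each. A count of 0 at these depths allows up to 3 counts in a sample, or between 0.187 and 0.285 CPM (counts scaled to the library total), and this bound covers counting error only. Within single letters, 15 to 17 keratins averaged above 1 TPM.

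The most abundant keratin differed between the line sets. In A-C, KRT5 led with 1062 ± 134 TPM (SD, n = 6), rank 60 of all genes, ahead of KRT18 and KRT8 at 442 ± 46.4 and 433 ± 174 TPM. In D-F, KRT81 led with 1893 ± 180 TPM (SD, n = 6), rank 31 of all genes, while its level of 24.4 ± 5.33 TPM in A-C put it at rank 5838. KRT8 followed in D-F at 981 ± 221 TPM and KRT18 at 789 ± 75.7 TPM. Neighbours in these orders whose SDs overlapped were KRT18 and KRT8 in each set, and no order is read between them. KRT81 held 38.4% ± 3.20 (SD, n = 6) of the summed keratin TPM in D-F and 0.871% ± 0.177 in A-C, whereas KRT5 held 5.04% ± 0.440 in D-F and 37.9% ± 3.29 in A-C. The share of KRT18 overlapped between the sets, with 12.3% to 18.9% in A-C and 14.2% to 17.7% in D-F.

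**Figure D1:**
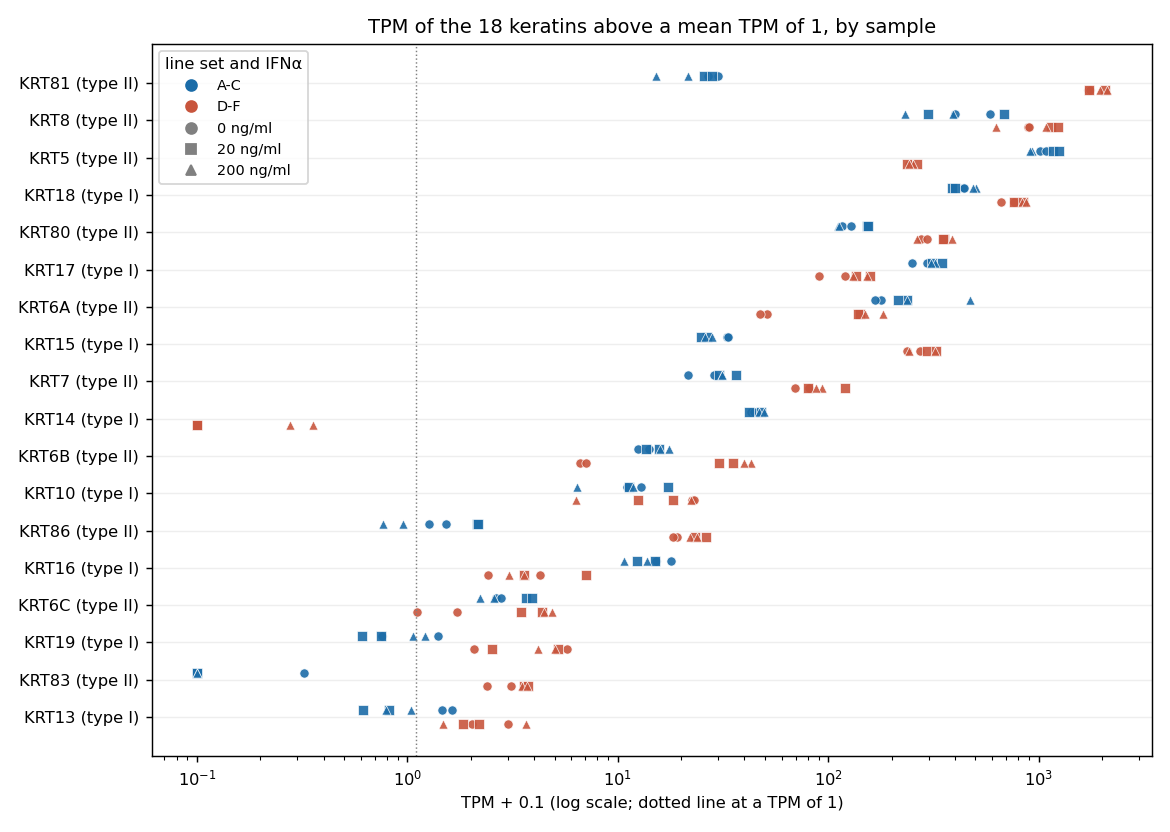
TPM plus 0.1 of the 18 keratins above a mean of 1 TPM, on a log axis, with 1 point for each of the 12 samples, line sets by colour and IFNα dose by shape. KRT81 lies between 15.2 and 29.7 TPM in A-C and between 1717 and 2113 TPM in D-F, and KRT14 is at or near 0 only in D-F.

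Summed over all 55 genes, keratin RNA was more abundant in D-F. The sum was 2798 ± 238 TPM in A-C and 4936 ± 419 TPM in D-F (SD, n = 6 each), and the sets did not overlap, with 2573 to 3235 TPM in A-C and 4380 to 5362 TPM in D-F. Type II genes made up more of the sum than type I genes in every sample. The type II sum was 2.30 ± 0.338 times the type I sum in A-C and 3.02 ± 0.263 times in D-F. In D-F the whole sum averaged 4427 ± 66.6 TPM in controls, 5291 ± 101 TPM at 20 ng/ml and 5091 ± 217 TPM at 200 ng/ml (SD, n = 2 each). In A-C it averaged 2731 ± 224, 2986 ± 353 and 2678 ± 20.7 TPM. These sums are descriptions with no test, and in bulk RNA fewer cells of a kind and less RNA per cell cannot be told apart.

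**Figure D2:**
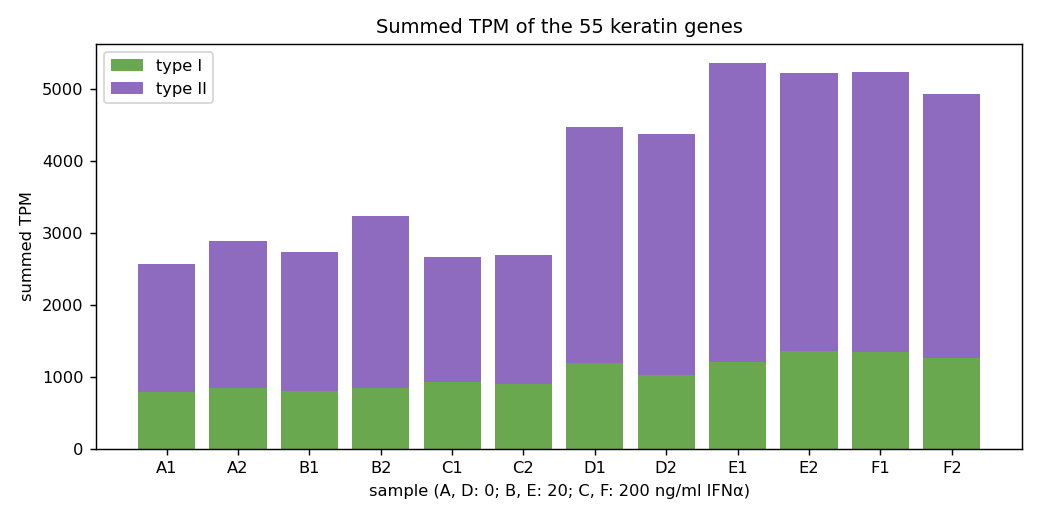
Summed TPM of the keratin genes in each of the 12 samples, with the type I sum below and the type II sum above it. The 6 samples of A-C reach 2573 to 3235 TPM and the 6 of D-F reach 4380 to 5362 TPM.

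Untreated D-F cells differed from untreated A-C cells in most of the keratins they made. The comparison used letters D and A in edgeR's quasi-likelihood test, in which a gene passed at a Benjamini-Hochberg adjusted p of at most 0.05 over all 19944 genes tested. The same 18 keratins that were above 1 TPM entered this test. Of these 18, 8 were higher in D-F and 7 were lower, beside 24.1% and 22.4% of all tested genes. Passing with a difference of at least 2-fold were 14 of the 18, beside 26.6% of all tested genes. KRT14, KRT19 and KRT83 entered only through the line set in which they were high, and these counts include them. The median log2 difference was 0.57 for the 18 keratins and 0.01 for all genes.

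The basal keratins parted in opposite directions. KRT5 was at 1018 and 1088 TPM in A1 and A2 and at 248 and 242 TPM in D1 and D2, so that it was 4.44-fold lower in D-F (log2 difference -2.15 ± 0.10 SE, edgeR adjusted p = 4.26e-07). KRT15 was at 33.0 and 33.4 TPM in the A-C controls and at 273 and 238 TPM in the D-F controls, 8.51-fold higher (3.09 ± 0.15, edgeR adjusted p = 4.26e-07). KRT14, the main type I partner of KRT5, was at 42.7 and 44.4 TPM in A1 and A2, from 543 and 730 counts, and had no count in D1 and D2. Against the 3 counts per sample that a count of 0 allows, KRT14 was at least 216.4-fold lower in D-F, and the bound was at least 175-fold at 20 ng/ml. In F1 and F2, at 200 ng/ml, KRT14 had 3 and 2 counts.

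All 5 stress and wound keratins were lower in untreated D-F cells. KRT16 stood at 15.1 and 17.7 TPM in the A-C controls and at 4.17 and 2.33 TPM in the D-F controls, 5.82-fold lower (log2 difference -2.54 ± 0.25 SE, edgeR adjusted p = 3.27e-05). KRT6A was 3.81-fold lower, with 178 and 168 TPM against 51.1 and 47.5 TPM. For KRT17, KRT6C and KRT6B the levels were 3.14-fold, 2.16-fold and 2.11-fold lower. The KRT6C call was lost in 5 of 22 alternatives, among them limma and a fit of only the groups compared. The omission of A2 or D1 also ended it, with differences of -1.06 and -0.77. Averaged over the 3 doses, KRT6B was higher in D-F, by 0.33 on the log2 scale (edgeR adjusted p = 0.00523), and KRT6C differed by -0.17 (edgeR adjusted p = 0.394).

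The simple epithelial keratins stood higher in D-F or did not pass. KRT7, a type II keratin of glandular and ductal cells, was at 21.5 and 28.5 TPM in A1 and A2 and at 69.0 and 81.4 TPM in D1 and D2, 2.57-fold higher (log2 difference 1.36 ± 0.20 SE, edgeR adjusted p = 0.000367). KRT18 was 1.44-fold higher, with 439 and 440 TPM in A-C and 767 and 662 TPM in D-F. KRT19, the smallest keratin, was at 1.303 and 0.658 TPM in A-C and at 1.98 and 5.64 TPM in D-F, a difference of 1.54 ± 0.55 that passed at an edgeR adjusted p of 0.0426. The KRT19 result rested on 9 to 43 counts per sample, and without D2 the difference was 0.86 with an edgeR adjusted p of 0.311. The call was lost in 12 of 23 alternatives, among them the omission of A1, A2, B1, B2, F1 or F2, with differences of 1.32 to 1.78. For KRT8 the difference was 0.61 ± 0.25 and did not pass (edgeR adjusted p = 0.0695), but it did with DESeq2 (0.62, adjusted p = 0.0315) and in an edgeR fit of only the groups compared (0.61, adjusted p = 0.0250).

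The hair keratins made the widest gap in the other direction. KRT81 was at 26.7 and 29.7 TPM in the A-C controls and at 1717 and 1760 TPM in the D-F controls, 56.0-fold higher (log2 difference 5.81 ± 0.18 SE, edgeR adjusted p = 6.06e-08). KRT86 was at 1.43 and 1.17 TPM against 18.9 and 18.2 TPM, 14.8-fold higher (3.89 ± 0.19, edgeR adjusted p = 5.43e-07). KRT83 had 0 and 5 counts in A1 and A2 and 37 and 51 counts in D1 and D2. At 20 ng/ml, with no KRT83 count in B1 or B2, its level was at least 17.6-fold higher in D-F. The transcript KRT86-201 had no count in any of the 6 A-C samples and 291 to 333 counts in the D-F samples. The KRT87P pseudogene of the same neighbourhood was at 0 to 0.711 TPM in A-C and 35.8 to 56.6 TPM in D-F. KRT80 was 2.16-fold higher in D-F, at 277 and 295 TPM against 116 and 128 TPM.

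Set in their chromosomal order, keratins of like direction stood next to each other. From one end of the chromosome 12 cluster, KRT80, KRT7, KRT86, KRT81 and KRT83 were all higher in untreated D-F, then KRT6B, KRT6C, KRT6A and KRT5 were all lower, and of the last pair KRT18 was higher and KRT8 did not pass. On chromosome 17, KRT10 (0.78 ± 0.32 SE) and KRT13 (0.33 ± 0.47 SE) did not pass, although KRT10 did in a fit of only the groups compared (edgeR adjusted p = 0.0373), KRT15 and KRT19 were higher, and KRT14, KRT16 and KRT17 were lower. This order is a description, and neighbours with near-identical sequence share reads.

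**Figure D3:**
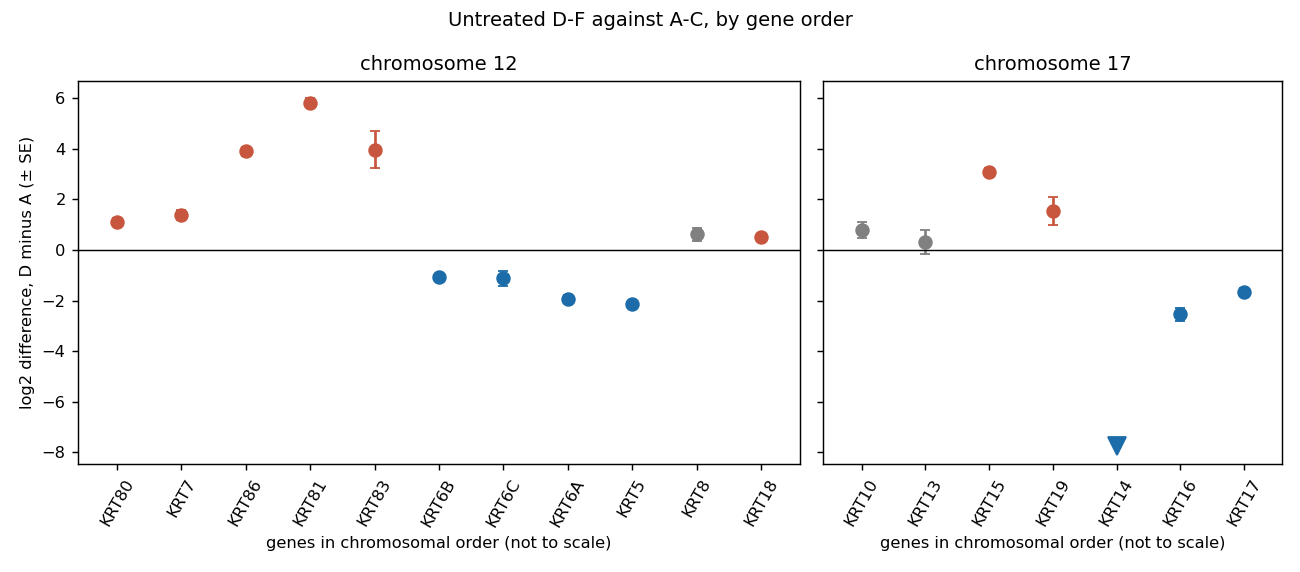
Log2 difference between untreated D-F and A-C, with its SE, for the 18 keratins in the order of their start positions on chromosomes 12 and 17, not to scale. Red points passed as higher in D-F, blue as lower and grey did not pass, and the triangle of KRT14 is a bound of at least 216.4-fold lower.

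The genes that anchor keratin filaments and those that control epithelial identity were read from lists. Of 18 genes of desmosomes and plakins, 16 were tested, and 12 were higher and 1 was lower in untreated D-F, beside 24.1% and 22.4% of all tested genes. DSC2, a desmosomal cadherin, differed by 1.90 ± 0.08 on the log2 scale, EPPK1, the plakin epiplakin, by 1.74 ± 0.12 and PKP1, a desmosomal plaque protein, by 1.53 ± 0.19. DST, a plakin of which an epithelial form links KRT5 and KRT14 filaments to hemidesmosomes, was lower by -0.49 ± 0.06. Their median was 0.75, beside 0.01 for all genes. VIM, the vimentin gene of mesenchymal intermediate filaments, was low in both sets, at 1.71 ± 0.135 TPM in the A-C controls and 6.57 ± 0.407 TPM in the D-F controls (SD, n = 2 each), and passed as higher in D-F (1.83 ± 0.40 SE).

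Of 14 epithelial transcription factors, 8 were higher and 3 were lower in untreated D-F, beside the same 24.1% and 22.4%. ELF3 differed by 2.07 ± 0.10 on the log2 scale, GRHL3 by 1.63 ± 0.43 and OVOL1 by 1.23 ± 0.23. TP63, which encodes the p63 factor of basal cells, was lower by -1.15 ± 0.11, from 247 ± 13.6 TPM in the A-C controls to 120 ± 16.2 TPM in the D-F controls. EHF was lower by -2.08 ± 0.24. SOX2 was at 1.17 ± 0.227 TPM in the A-C controls and at 0 TPM in all 6 samples of D-F. It entered the test only through A-C, and the count of lower factors includes it.

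After IFNα, KRT6A and KRT6B rose, and few other keratins passed. At 200 ng/ml, with the line sets averaged, KRT6A and KRT6B passed as higher, as did KRT14, and none passed as lower with edgeR, DESeq2 or limma, beside 4.98% and 4.57% of all tested genes with edgeR. At an unadjusted p under 0.05, 1 was lower with edgeR, KRT5. KRT6A and KRT6B were at least 2-fold, beside 2.14% of all genes. The value of KRT14 rested on the 3 and 2 counts in F1 and F2 against no count in D1 and D2, and no fold is given. DESeq2 (adjusted p = 0.0573) and limma (adjusted p = 0.426) did not pass KRT14, and its edgeR call was lost in 8 of 22 alternatives, among them the omission of A1, D1, D2, F1 or F2, with adjusted p of 0.0517 to 0.173. In A-C, where KRT14 was counted in every sample, it was at 42.7 and 44.4 TPM without IFNα and at 46.7 and 49.2 TPM at 200 ng/ml (log2 fold change 0.14 ± 0.14 SE, edgeR adjusted p = 0.614). The median log2 fold change was 0.05 for the 18 keratins and -0.01 for all genes.

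KRT6B, a type II keratin induced in wounded and hyperproliferative epithelium, showed the clearest dependence on line set. In D-F it was at 6.54 and 6.98 TPM in controls, 30.1 and 35.0 TPM at 20 ng/ml and 42.9 and 39.8 TPM at 200 ng/ml. In A-C it was at 13.9 and 12.3 TPM, then 15.6 and 13.6 TPM, then 15.7 and 17.4 TPM. Every treated D-F sample was above every A-C sample, although the D-F controls were the lowest samples of all. In D-F the high dose raised KRT6B 5.77-fold (log2 fold change 2.53 ± 0.15 SE, edgeR adjusted p = 5.75e-06) and the low dose 4.59-fold (2.20 ± 0.15, edgeR adjusted p = 1.94e-05). In A-C the high-dose value was 0.35 ± 0.14 and did not pass (edgeR adjusted p = 0.177). The difference between the sets was itself tested, and it was 2.18 ± 0.20 at the high dose (edgeR adjusted p = 0.00232) and 2.04 ± 0.20 at the low dose (edgeR adjusted p = 0.00306). KRT6B was the 1 keratin that passed as higher in these edgeR tests, beside 1.07% of all genes at the high dose and 0.236% at the low dose. DESeq2 passed 4 keratins (KRT6A, KRT6B, KRT6C and KRT81) at the high dose and 2 (KRT6A and KRT6B) at the low dose. No share of all genes is given for DESeq2, so its counts are not set against the edgeR shares. No keratin passed as lower with edgeR or DESeq2, beside 0.807% and 0.135% of all genes with edgeR, and none was lower at an unadjusted p under 0.05 (0 of 18 at either dose). The control samples enter both doses, so the values at 20 and 200 ng/ml are not independent of each other. Of the leukocyte markers, CD68 was also higher with IFNα, from 5.29 and 6.45 TPM in the D-F controls to 36.1 and 39.6 TPM at the high dose (2.71 ± 0.20). PTPRC was at most 0.0425 TPM and CD3E at 0 in every sample, and CD14 averaged above 1 TPM in A-C but not in D-F.

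KRT6A, the most abundant KRT6 gene in every sample, rose 2.32-fold at the high dose with the sets averaged (log2 fold change 1.21 ± 0.11 SE, edgeR adjusted p = 0.000153). In D-F it was at 51.1 and 47.5 TPM in controls, 141 and 139 TPM at 20 ng/ml and 181 and 149 TPM at 200 ng/ml, so that the high-dose change was 3.14-fold (1.65 ± 0.16, edgeR adjusted p = 0.000279). In A-C it was at 178 and 168 TPM, 237 and 215 TPM, and 236 and 473 TPM in the same order. The sample C2 stood apart, with 950 counts on a transcript with a retained intron, KRT6A-205, that had at most 19 counts in any other sample. The high-dose change in A-C was 0.78 ± 0.16 (edgeR adjusted p = 0.0209). It was 0.49 with an adjusted p of 0.0837 without C2, 0.79 with 0.0762 without A1 and 0.76 with 0.124 without A2, and 0.61 with an adjusted p of 0.0144 when only the coding transcript KRT6A-201 was counted, an alternative chosen after the data were seen. The coding transcript was at 174 and 163 TPM in A1 and A2 and at 233 and 277 TPM in C1 and C2. The difference between the sets for KRT6A was 0.87 ± 0.22 at the high dose and did not pass (edgeR adjusted p = 0.0881).

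KRT6C, the least abundant KRT6 gene, was at 1.01 and 1.62 TPM in the D-F controls, 4.25 and 3.35 TPM at 20 ng/ml and 4.38 and 4.78 TPM at 200 ng/ml. The high-dose change in D-F was 3.23-fold (log2 fold change 1.69 ± 0.30 SE, edgeR adjusted p = 0.00928). It rested on 19 and 34 counts in D1 and D2, and without D1 the change was 1.33 with an adjusted p of 0.0694. Without F2 it was 1.64 with an adjusted p of 0.0555. In A-C the values were 2.54 and 2.67 TPM in controls and 2.11 and 2.48 TPM at 200 ng/ml, a change of -0.24 ± 0.29. Within D-F at the high dose, 4 keratins passed as higher and none as lower with edgeR and with DESeq2, beside 3.44% and 2.39% of all genes with edgeR, and 0 were lower at an unadjusted p under 0.05. Of the 4, KRT6A, KRT6B and KRT6C changed by at least 2-fold, beside 1.67% of all genes.

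Because reads are shared among KRT6A, KRT6B and KRT6C, their counts were also added and tested as 1 gene. The sum rose 2.403-fold at the high dose with the sets averaged (log2 fold change 1.26 ± 0.11 SE, edgeR adjusted p = 8.08e-05), 3.45-fold in D-F and 1.67-fold in A-C. The difference between the sets was 1.04 ± 0.21 at the high dose (edgeR adjusted p = 0.0438) and 1.17 ± 0.21 at the low dose (edgeR adjusted p = 0.0641). KRT6B held 11.1% and 12.4% of the KRT6 TPM in D1 and D2 and 18.8% and 20.5% in F1 and F2. In A-C its share was 7.16% and 6.74% in controls and 6.19% and 3.53% at the high dose. The 3.53% was that of C2, where the retained-intron transcript KRT6A-205 was at 189 TPM, and the summed counts include that transcript.

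KRT16, a type I partner of the KRT6 genes, did not pass in any comparison with IFNα, and KRT17 passed in 1 with edgeR. KRT16 was at 15.1 and 17.7 TPM in A1 and A2 and at 10.6 and 13.7 TPM in C1 and C2, and at 4.17 and 2.33 TPM in D1 and D2 and 2.94 and 3.49 TPM in F1 and F2. With the sets averaged its change was 0.11 ± 0.17 (edgeR adjusted p = 0.771). KRT17 passed within D-F at the high dose, from 120 and 90.6 TPM to 153 and 130 TPM, a change of 1.43-fold (log2 fold change 0.52 ± 0.13 SE, edgeR adjusted p = 0.0438). That call was lost in 14 of 22 alternatives, and without F1 the change was 0.42 with an adjusted p of 0.243. Leaving out D1, D2, F2, B1, B2, E1 or E2 also ended it, with changes of 0.49 to 0.59. DESeq2 also passed KRT17 within D-F, at 0.50 at the high dose (adjusted p = 0.0110) and 0.52 at the low dose (adjusted p = 0.00983). With the sets averaged, DESeq2 passed it at 0.30 at the high dose (adjusted p = 0.0321) and 0.37 at the low dose (adjusted p = 0.00758), and neither edgeR nor limma did. In A-C, KRT17 was at 249 and 295 TPM without IFNα and at 323 and 310 TPM at 200 ng/ml, and the test of the difference between the sets did not pass (0.43 ± 0.18, edgeR adjusted p = 0.243).

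**Figure D4:**
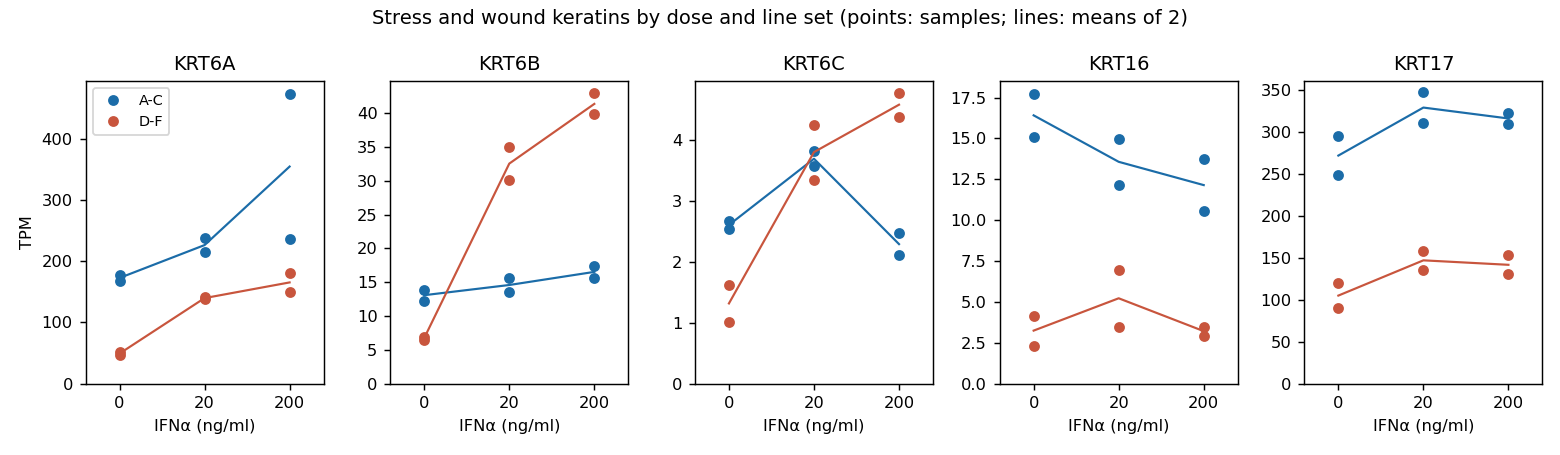
TPM of KRT6A, KRT6B, KRT6C, KRT16 and KRT17 at 0, 20 and 200 ng/ml IFNα, with each sample as a point and the mean of the 2 samples of a letter as a line, on a separate axis from 0 for each gene. KRT6B climbs from 6.54 and 6.98 TPM to 42.9 and 39.8 TPM in D-F and stays between 12.3 and 17.4 TPM in A-C.

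At 20 ng/ml with the sets averaged, KRT6A, KRT6B and KRT6C passed as higher and no keratin as lower with edgeR, beside 2.33% and 1.60% of all genes. DESeq2 and limma also passed 0 as lower, and KRT5 was the 1 keratin lower at an unadjusted p under 0.05 with edgeR. In A-C the TPM of KRT5 went the other way, from 1018 and 1088 TPM to 1176 and 1248 TPM, so no direction is read for it. KRT6B alone was at least 2-fold, at 2.26-fold (log2 fold change 1.18 ± 0.10 SE, edgeR adjusted p = 0.000109), beside 1.15% of all genes. KRT6A changed by 0.89 ± 0.11 and KRT6C by 0.96 ± 0.20. The KRT6C call (edgeR adjusted p = 0.0311) was lost in 13 of 21 alternatives, among them the omission of any sample but C1, C2 or D2, and without D1 the change was 0.80 with an adjusted p of 0.0878. Within D-F the same 3 genes passed as higher at the low dose, beside 2.15% of all genes, with changes of 1.41 ± 0.16 for KRT6A and 1.41 ± 0.30 for KRT6C. That KRT6C call (edgeR adjusted p = 0.0343) was lost in 13 of 21 alternatives, among them limma, a fit of only the groups compared and the omission of any sample but C1, C2 or D2, and without D1 the change was 1.06 with an adjusted p of 0.196. DESeq2 passed KRT17 as well. Between the doses, no keratin passed in either direction with edgeR, with DESeq2 or with limma, beside 0.135% of all genes with edgeR. At an unadjusted p under 0.05 with edgeR, 3 keratins were higher at the high dose and 2 were lower. In either direction, 1846 of all 19944 tested genes reached that p. The 3 were KRT6A (0.32 ± 0.11), KRT6B (0.26 ± 0.10) and KRT14, which had 3 and 2 counts in F1 and F2. The 2 were KRT86 (-0.74 ± 0.15, edgeR adjusted p = 0.144) and KRT80 (-0.30 ± 0.10), and none of these passed.

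Outside the KRT6 genes and KRT17, the hair keratin KRT81 was the 1 keratin that passed with edgeR within a line set after IFNα. It passed as lower within A-C, from 26.7 and 29.7 TPM to 21.3 and 15.2 TPM at the high dose (log2 fold change -0.61 ± 0.16 SE, edgeR adjusted p = 0.0465). Beside KRT6A it was the 1 keratin to pass there, against 3.58% of all genes higher and 3.60% lower. The KRT81 call was lost in 15 of 22 alternatives, among them the omission of any sample but C1, and without C2 the change was -0.38 with an adjusted p of 0.179. In D-F, KRT81 was at 1717 and 1760 TPM in controls and 1958 and 2113 TPM at the high dose, a change of 0.15 ± 0.14 that did not pass.

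KRT5 was at 926 and 914 TPM in C1 and C2, below both A-C controls, and at 252 and 241 TPM in F1 and F2, on either side of the D-F controls, and its change with the sets averaged was -0.16 ± 0.07 (edgeR adjusted p = 0.184). KRT15 changed by -0.14 ± 0.10 and KRT18 by 0.09 ± 0.06, and neither passed. KRT80 was at 265 and 389 TPM in F1 and F2, on either side of the D-F controls, with an averaged change of 0.00 ± 0.10. KRT7 (0.24 ± 0.14), KRT19 (0.52 ± 0.39), KRT13 (-0.41 ± 0.35) and KRT86 (-0.33 ± 0.15) also did not pass.

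**Figure D5:**
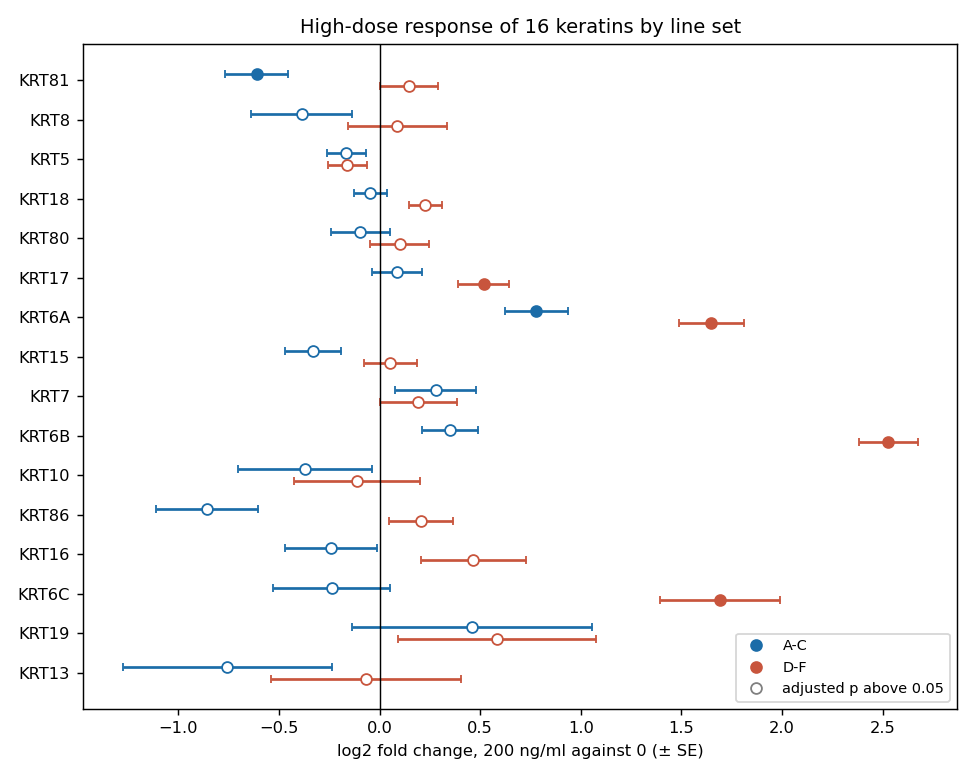
Log2 fold change at 200 ng/ml against 0, with its SE, for 16 keratins in A-C and D-F, without KRT14 and KRT83, which had at most 5 counts in samples of 1 set. Filled points passed, and KRT6B (2.53), KRT6C (1.69), KRT6A (1.65) and KRT17 (0.52) passed in D-F, whereas KRT6A (0.78) and KRT81 (-0.61) passed in A-C.

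The TPM of KRT8 and KRT10 varied between samples of 1 letter, and that of single transcripts varied with it. KRT8 was at 400 and 587 TPM in A1 and A2, at 297 and 688 TPM in B1 and B2 and at 1082 and 624 TPM in F1 and F2. A transcript with a retained intron, KRT8-211, held 47.4% of the KRT8 TPM and was at 531 TPM in F1 and 17.3 TPM in F2. The coding transcript KRT8-215 was at 392 and 477 TPM in those samples, at 361 TPM in E2, and had no count in E1, where KRT8-205 was at 381 TPM. Over all samples, nearly all KRT10 TPM came from 1 short transcript, KRT10-202. It was at 22.2 TPM in F1, from 86 counts, and at 0.35 TPM in F2, from 2 counts. The whole KRT10 gene had 86 counts in F1 and 87 in F2, while its TPM was 22.2 and 6.25. Other keratins also drew much of their gene level from transcripts not annotated as coding. Coding transcripts held 10.7% of the KRT7 TPM in A-C and 7.07% in D-F. For KRT15 they held 25.5% and 39.6%, and for KRT17 36.9% and 53.1%. The differences given for these genes are of whole-gene values. Whether the division of reads among transcripts set the values of any of these keratins was not tested. The changes of -0.15 ± 0.18 and -0.24 ± 0.23 at the high dose did not pass for KRT8 and KRT10.

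Ratios of partner genes within a sample do not depend on depth and were compared by exact two-sided permutation tests, adjusted over 6 tests. The KRT5 to KRT14 ratio was 23.5 ± 3.98 in A-C (SD, n = 6), and in D-F it was set by the 0.1 TPM added to each value. It is given only as higher in each of the 6 samples of D-F. The near absence of KRT14 there fixed the outcome of this test in advance, so its p is not read, although it counts among the 6 adjusted. The KRT6A to KRT16 ratio was 18.5 ± 9.01 in A-C and 32.0 ± 17.98 in D-F, a log2 difference of 0.71 within doses (exact permutation p = 0.00926, adjusted p = 0.0278), which is the smallest p that the arrangements allow. The KRT8 to KRT18 ratio was 0.999 ± 0.452 in A-C and 1.25 ± 0.292 in D-F (exact permutation p = 0.167, adjusted p = 0.167). For the high dose against control the 36 arrangements cannot give a p below 0.0556. The KRT6A to KRT16 ratio reached that value, with 11.7 and 9.40 in A1 and A2, 22.2 and 34.2 in C1 and C2, 11.98 and 19.6 in D1 and D2 and 59.6 and 41.6 in F1 and F2 (log2 difference 1.55, exact permutation p = 0.0556, adjusted p = 0.0833). The treated samples did not overlap the controls of their set, and the test did not pass. In C2 the KRT6A value behind the ratio includes 189 TPM of the retained-intron transcript KRT6A-205.

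The anchoring genes and transcription factors were also read at the high dose. Of the 16 tested genes of desmosomes and plakins, 2 passed as higher and 2 as lower, none by 2-fold, beside 4.98% and 4.57% of all genes. DSG3, a desmosomal cadherin, rose by 0.24 ± 0.06 on the log2 scale and DSC2 by 0.22 ± 0.06, and EPPK1 fell by 0.45 (± 0.08 SE) and DST by 0.17 (± 0.04 SE). TP63 was the 1 transcription factor of 14 that passed, at 0.41 ± 0.08, with 247 ± 13.6 TPM in controls and 422 ± 41.8 TPM at the high dose in A-C and 120 ± 16.2 and 123 ± 4.17 TPM in D-F. For TP63 the difference between the sets at the high dose was -1.03 ± 0.15 (edgeR adjusted p = 0.0136). The median was -0.14 for the filament partners and 0.12 for the transcription factors.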

How the data were processed

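RNA of 12 samples of Cal27 and HN30 cells had been sequenced after removal of rRNA, with strand kept. The submitters' processing notes name Trimmomatic 0.36, HISAT2 2.1.0, StringTie 1.3.3b and the build GRCh38.p10. Per gene and per transcript, the authors deposited estimated counts (whole numbers, not scaled) beside TPM and FPKM, both scaled by them for length and depth. TPM was used for levels, and FPKM for 1 check of the threshold. Division of reads among near-identical genes and among transcripts was the authors' and can move single values. Samples were grouped by titles into 6 letters.

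Fold changes were computed in edgeR 4.0.16 (R 4.3.3) on the estimated counts (TMM, filterByExpr, 1 quasi-likelihood fit of 6 groups, Benjamini-Hochberg adjustment over 19944 genes). The SE was the log2 fold change divided by the root of F. A gene passed at an adjusted p of at most 0.05. Folds against at most 3 counts per sample are bounds. Alternatives used DESeq2 1.42.0, limma 3.58.1 on log2(TPM + 1) for genes above a mean of 0.1 TPM, other scalings and filters, and each sample left out. Fits were tested on simulated data. Coding sequences and transcript types were taken from GENCODE release 29, in which 53 of 55 keratins had the deposited position, with Biopython 1.88. Python 3.11.15, pandas 2.3.3, numpy 2.4.6, scipy 1.17.1 and matplotlib 3.10.9 made the tables and figures.

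The members and lists were chosen with earlier results of these data known. Every keratin above a mean of 1 TPM was named, and of the other lists the 3 highest and 3 lowest log2 fold changes among genes that passed, at the high dose and between untreated sets. KRT87P, CDH5, CD14, CD68, VIM and the keratins below 1 TPM were named after their values were seen. Replicate numbers come from the titles. Samples of the same number did not deviate together (correlations between -0.0507 and 0.0585 over 13033 genes), so the numbers were not used as pairs.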

Additional observations from a re-analysis of the deposited data

Results flagged for a closer look

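The response of KRT6B to IFNα differed between the line sets in a test of the difference itself, D-F minus A-C. The log2 difference was 2.18 at the high dose, with a response of 2.53 ± 0.15 SE in D-F and 0.35 ± 0.14 in A-C. At the low dose it was 2.04, with a response of 2.20 ± 0.15 in D-F and 0.16 ± 0.14 in A-C. Both doses share their control samples. KRT6B shares reads with KRT6A and KRT6C, and for the 3 genes summed the difference was 1.04 at the high dose (edgeR adjusted p = 0.0438) and 1.17 at the low dose (edgeR adjusted p = 0.0641). With 2 samples for each letter, no group was large enough to test a single sample as standing apart.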

How the results depend on the processing

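Each sample was left out in turn and 11 other settings were tried. KRT6B kept its rise at the high dose, in D-F and in the tests between line sets in all 21 alternatives of each, with differences between sets of 2.096 to 2.25 at the high dose and 1.91 to 2.16 at the low dose. Of the 14 keratins at least 2-fold apart between untreated sets, KRT81, KRT86, KRT83, KRT15, KRT7, KRT80, KRT14, KRT16, KRT5, KRT6A and KRT17 kept direction and call in every alternative. KRT6B turned from -1.08 to 0.33 when the 3 doses were averaged. KRT78, which edgeR did not test, also passed as lower in D-F with DESeq2 and limma, and KRT80 passed as higher at the low dose in a fit of only the groups compared (0.30, adjusted p = 0.0349).

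With KRT6A, KRT6B and KRT6C summed, the keratins that passed as higher were 1 at the low dose and 2 within D-F, of which 0 and 1 were at least 2-fold, and the low-dose difference between sets held 0. A rule of 2-fold with an unadjusted p of at most 0.05 gave 1 keratin between doses, 4 for the difference between sets at the high dose and 3 at the low dose. That p alone held for 1846, 3539 and 2098 of all 19944 tested genes in the same order. Within A-C, where 1 passed in each direction, 0 did with limma, 0 in a fit of only the groups compared and 0 with the replicate block. In a fit of only the groups compared, 2 passed within D-F and 2 for the low-dose difference, the latter both at least 2-fold. DESeq2 gave 4 for the high-dose difference and 2 for the low-dose one, with 2 at least 2-fold in each. With the coding transcript of KRT6A alone, an alternative added after the data were seen, both differences gave 2. The cause of these shifts was not tested, beyond the smaller number of samples or genes in some fits. The share of all genes under each of these settings is not given, so their counts are not read as results about the keratins.

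With samples left out in turn, keratins that passed as lower at the high dose numbered 0 to 1 (KRT81 without C1), those at least 2-fold at the low dose 1 to 2, those within A-C 0 to 1 in each direction and for 2-fold, those higher within D-F 2 to 4, and those in the tests between sets 1 to 2. Without C2, KRT6A was the second keratin to pass in the high-dose difference, at 1.16. The replicate block within line sets ended the calls of KRT6A (0.77, adjusted p = 0.0511) and KRT81 within A-C, KRT17 within D-F (0.52, adjusted p = 0.102), KRT6C at the low dose, averaged and within D-F (1.43, adjusted p = 0.0763), and KRT19 between untreated sets (0.92, adjusted p = 0.261), and no other keratin call. The numbers do not pair the samples, so these are not read as weaker effects. With 2 samples a letter, genes with few counts, such as KRT19 at 7 to 45, are the least certain.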
